A study of Mus musculus with 3 samples.

Results

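Thbd, Procr, Tfpi, F5, Selp, Sele, Cd93, Calcrl, Nostrin and Cd34 are 10 genes that endothelial cells use to face the blood, taken by name from the 3264 genes of the matrix used here, and all 10 were found. The matrix holds 16383 barcodes of mouse mitral valves, pooled over libraries. They are called cells here after the library label, but which of them may be nuclei is not stated, and the matrix may hold only part of the barcodes. The study compared wild-type C57BL/6J mice with mgR mice, which carry Fbn1mgR on both alleles and make too little fibrillin-1, once with whole cells and once with nuclei, where mgR mice given rapamycin were added. The 3 samples listed with the matrix are labelled B6.129-Fbn1tm2Rmz/J (mgR/mgR) mitral valve, came from mice 12 weeks old, and lie on the C57BL/6J background. The mgR allele is carried in every cell of the body, so it does not single out the endothelium. No barcode could be traced to an animal or a genotype. Genotypes were therefore not compared and no test was run, since all cells count as 1 pooled sample, and the intervals below cover counting error only.

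Endothelium keeps blood fluid by displaying anticoagulant proteins, and it admits leukocytes by displaying adhesion proteins. Thrombomodulin (Thbd) turns thrombin from a clotting enzyme into the activator of protein C, the endothelial protein C receptor (Procr) holds protein C beside it, and tissue factor pathway inhibitor (Tfpi) blocks the enzymes that start clotting, whereas factor V (F5) is a clotting cofactor. P-selectin (Selp) is stored ready-made in endothelial granules and E-selectin (Sele) is made anew after inflammatory signals, and both tether passing leukocytes.

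Cells were sorted by the UMIs (unique molecular identifiers, each counting 1 captured RNA molecule) of a few genes that are not members. Egfl7 cells, 8966 in all, had a UMI of Egfl7, a secreted endothelial protein, and UMIs of fewer than 2 of the fibroblast genes Prrx1, Col3a1 and Dpt. Fibroblast-gene cells, 3149 in all, had UMIs of 2 or more of those and none of Egfl7. Ptprc cells, 470 in all, had a UMI of Ptprc, the pan-leukocyte antigen CD45, and met neither rule. Of 10 endothelial markers, only Egfl7 was among the genes of the matrix, so the groups are called here by their rule genes. The other 421 cells with Egfl7 and fibroblast genes, and 3377 cells with neither rule met, stayed outside the comparisons. Total UMIs per cell ran from 503 to 23127, with medians of 5365.5, 6063 and 4851 in the Egfl7, fibroblast-gene and Ptprc cells. The barcodes fell into 2 alphabetical runs of 14222 and 2161 cells that shared 11 barcodes, with medians of 5154 and 6918 UMIs. Which libraries these runs hold is not stated.

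The 10 genes lie on chromosomes 1 and 2, several of them side by side (coordinates in GRCm38, GENCODE M21). Sele (chr1:164048234-164057677), Selp (chr1:164115264-164150026) and F5 (chr1:164151838-164220277) stand in a row on the plus strand, and only 1811 bases separate the end of Selp from the start of F5. Calcrl (chr2:84330626-84425411) and Tfpi (chr2:84432855-84476775) are neighbours on the minus strand, 7443 bases apart. Thbd (chr2:148404466-148408188) and Cd93 (chr2:148436640-148443563), which encode C-type lectins of 1 family, lie 28451 bases apart with no coding gene between. Nostrin (chr2:69135800-69189330), Procr (chr2:155751117-155755471) and Cd34 (chr1:194938819-194961279) stand apart from the other members. Gm16587 overlaps Selp and Gm16897 overlaps Cd34 on the opposite strand. Whether reads running past the end of a gene were counted in its neighbour was not tested.

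Promoter sequence is shown for the genes the results below turn on. These are Sele, whose UMIs sat in few cells, and Selp, whose UMIs did so less. The others are Nostrin, which followed Selp, and Tfpi, which ran the other way. Each run holds bases before the transcription start in RefSeq (GRCm38.p6) that lie outside every annotated gene, 5′ to 3′ on the gene's own strand. RefSeq entries were matched for 8 of the 10 genes, all but Thbd and Cd93. Capitals mark matches, on either strand, to 4 motifs: the ETS-type letters CAGGAA, known from promoters of endothelial genes; the KLF-type letters CACCC, bound by a family of factors that respond to flow; the GATA-type letters AGATAA; and the NF-kB-type pattern, which is GGGA and then CC with any 4 bases between them.
Selp (chr1:164115014-164115263, plus strand): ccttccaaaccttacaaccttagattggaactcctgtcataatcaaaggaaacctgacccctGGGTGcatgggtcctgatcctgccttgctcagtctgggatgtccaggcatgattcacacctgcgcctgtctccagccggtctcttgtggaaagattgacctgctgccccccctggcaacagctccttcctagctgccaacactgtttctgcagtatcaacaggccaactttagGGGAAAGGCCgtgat
Sele (chr1:164047984-164048233, plus strand): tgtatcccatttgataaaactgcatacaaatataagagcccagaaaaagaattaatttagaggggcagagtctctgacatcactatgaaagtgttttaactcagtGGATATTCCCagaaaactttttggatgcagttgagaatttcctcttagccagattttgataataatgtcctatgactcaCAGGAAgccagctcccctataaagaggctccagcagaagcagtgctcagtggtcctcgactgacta
Nostrin (chr2:69135550-69135799, plus strand): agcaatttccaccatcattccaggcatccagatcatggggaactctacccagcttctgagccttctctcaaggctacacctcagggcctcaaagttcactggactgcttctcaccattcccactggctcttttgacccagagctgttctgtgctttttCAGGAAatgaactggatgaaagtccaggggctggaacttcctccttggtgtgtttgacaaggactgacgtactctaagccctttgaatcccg
Tfpi (chr2:84476776-84477009, minus strand): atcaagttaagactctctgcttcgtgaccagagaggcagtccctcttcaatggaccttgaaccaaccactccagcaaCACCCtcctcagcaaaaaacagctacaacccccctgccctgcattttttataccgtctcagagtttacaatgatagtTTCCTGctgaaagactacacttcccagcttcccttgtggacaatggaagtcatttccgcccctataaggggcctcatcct
Both selectin promoters held the NF-kB-type letters, which 17.6% of all 32851 promoters of the table hold within their 250 bases. In Sele these stood as GGATATTCCC, on the other strand, 145 to 136 bases before the start, and in Selp as GGGAAAGGCC, 15 to 6 bases before it. The Nostrin and Tfpi sequences did not hold them, and of the sequences not printed Procr did. CAGGAA stood in the Sele, Nostrin and Tfpi sequences and in 25.7% of all promoters. CACCC stood in those of Selp and Tfpi and in 52.0% of all, and AGATAA stood in none of the 4 printed but in 9.99% of all. No motifs of different kinds overlapped in these sequences. A match of letters does not show that a factor binds there.

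All 10 genes were higher in Egfl7 cells than in fibroblast-gene cells, and Cd93, Thbd and Calcrl stood furthest above them. The excess was smallest for Cd34, which fibroblasts also carry. A gene was counted as higher when the ratio of summed levels was at least 2 and its 95% exact interval left out 1, among genes with 50 or more UMIs. By this count 9 of the 10 members were higher in Egfl7 cells, against 15.2% of the 2605 genes tested. The median ratio was 5.91 for the members and 0.966 over all genes tested. Genes of heart muscle moved the same way. The summed level of Tnnt2, Ttn and Mybpc3, the 3 of 5 cardiomyocyte markers in the matrix, was 1.11 in Egfl7 cells, 0.103 in fibroblast-gene cells and 0.251 in Ptprc cells, and its part in these results was not tested.

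Among the clotting regulators, Thbd stood furthest apart. Levels are given as UMIs per 10000 UMIs of the same cells, with 95% exact Poisson intervals. The level of Thbd was 1.74 (1.70 to 1.77) in Egfl7 cells, 0.0947 (0.0820 to 0.109) in fibroblast-gene cells and 0.251 (0.192 to 0.323) in Ptprc cells. Its Egfl7 level was 18.4 times (15.9 to 21.2) that of fibroblast-gene cells. Procr, the partner that hands protein C to thrombomodulin, was lower in both other groups, at 0.281 (0.267 to 0.296), 0.0612 (0.0511 to 0.0728) and 0.0576 (0.0315 to 0.0967) in the same order. Tfpi was more widely spread over the groups, at 0.662 (0.641 to 0.684), 0.223 (0.203 to 0.244) and 0.284 (0.221 to 0.360), a ratio of 2.97 (2.70 to 3.28) over fibroblast-gene cells. F5, the lone procoagulant among the members, was barely counted. It had 61 UMIs in the whole matrix, of which 50 lay in 38 Egfl7 cells, 4 in fibroblast-gene cells and 1 in a Ptprc cell, and its ratio of 4.86 over fibroblast-gene cells had an interval from 1.78 to 18.5.

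Both selectins were set apart in Egfl7 cells. The level of Selp was 0.453 (0.435 to 0.471) in Egfl7 cells against 0.0651 (0.0546 to 0.0769) in fibroblast-gene cells and 0.0329 (0.0142 to 0.0649) in Ptprc cells. Sele stood at 0.357 (0.342 to 0.374), 0.0435 (0.0350 to 0.0534) and 0.0371 (0.0169 to 0.0703). The Egfl7 level was thus 6.96 times (5.85 to 8.33) the fibroblast-gene level for Selp and 8.21 times (6.65 to 10.2) for Sele.

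**Figure D1:**
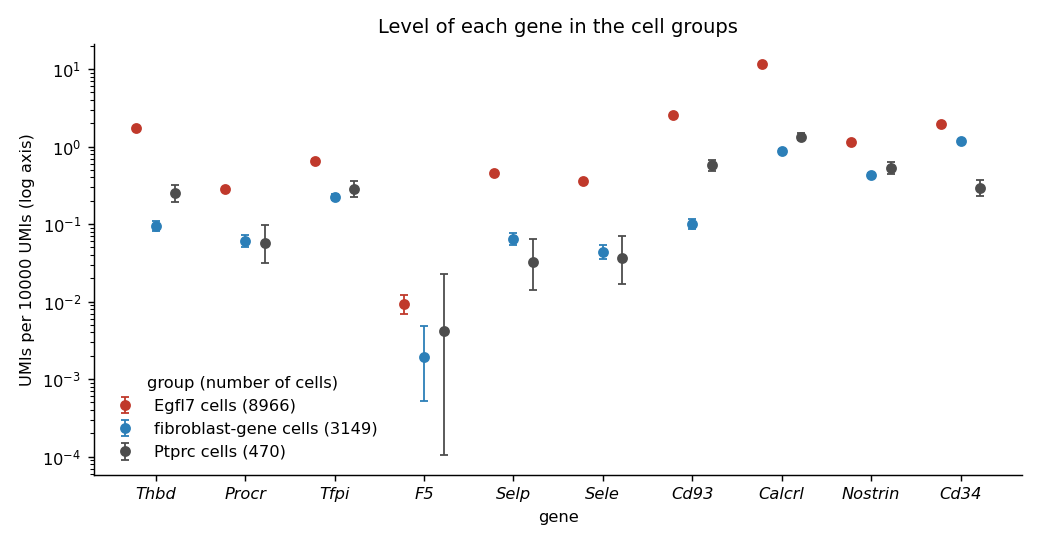
Level of the 10 genes (UMIs per 10000 UMIs, log axis) in Egfl7, fibroblast-gene and Ptprc cells, with 95% exact Poisson intervals of counting error. The Egfl7 point is the highest for every gene, the gap to fibroblast-gene cells is smallest for Cd34 (1.94 against 1.18), and the F5 intervals are widest because it had 61 UMIs in all.

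The remaining members are surface or signalling proteins. Cd93, a lectin of the endothelial surface that takes part in cell adhesion and vessel growth, showed the steepest drop among the 10, from 2.53 (2.48 to 2.57) in Egfl7 cells to 0.10 (0.0873 to 0.115) in fibroblast-gene cells, a ratio of 25.2 (21.9 to 29.0). In Ptprc cells Cd93 stood at 0.576 (0.485 to 0.680), and myeloid cells are known to carry it. Calcrl, the receptor that binds adrenomedullin or the peptide CGRP depending on its RAMP partner, was at 11.7 (11.6 to 11.8), 0.889 (0.849 to 0.930) and 1.35 (1.2 to 1.5) in the 3 groups. Nostrin, an adaptor that carries endothelial nitric oxide synthase away from the membrane, was at 1.16 (1.13 to 1.19), 0.431 (0.404 to 0.461) and 0.527 (0.440 to 0.627). Cd34, a sialomucin of the endothelial surface and of blood progenitor cells, was at 1.94 (1.90 to 1.98), 1.18 (1.13 to 1.23) and 0.292 (0.228 to 0.369). Its ratio over fibroblast-gene cells, 1.65 (1.57 to 1.72), missed the fold, as it did among cells of the first run (1.61), but the second run alone passed it (2.06, 1.78 to 2.39).

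Against Ptprc cells the order changed and the selectins came first, though their intervals were wide. Here 9 of the 10 members were counted as higher in Egfl7 cells, against 16.3% of the 2476 genes tested, with a median ratio of 5.76 for the members and 1.03 over all. Selp reached 13.7 times (6.96 to 31.9) the Ptprc level, Sele 9.64 times (5.07 to 21.1) and Calcrl 8.70 times (7.80 to 9.73). Thbd followed at 6.92 (5.38 to 9.05), Cd34 at 6.64 (5.26 to 8.51), Procr at 4.88 (2.90 to 8.94) and Cd93 at 4.38 (3.71 to 5.22). Tfpi, at 2.33 (1.84 to 3.0), and Nostrin, at 2.20 (1.85 to 2.64), were near the fold, and both fell short of it when Ptprc cells were taken whatever their other genes. Tfpi also fell short with Leiden clusters, and Nostrin with the first run alone and in Egfl7 cells without fibroblast-gene UMIs. F5 was not counted, its ratio of 2.26 (0.387 to 90.9) resting on 1 UMI in Ptprc cells. Between the 2 reference groups only Cd34 was counted as higher in fibroblast-gene than in Ptprc cells (4.04, 3.19 to 5.18), 1 of the 9 members tested, against 22.6% of 2313 genes.

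Shares of cells with a UMI are given beside those of fibroblast-gene cells. How much of the fibroblast-gene share comes from free RNA was not tested. With each cell thinned to 2000 UMIs (563 Egfl7, 92 fibroblast-gene and 54 Ptprc cells were shallower and left out), 24.4% (23.5 to 25.4) of Egfl7 cells had a Thbd UMI, against 2.0% (1.53 to 2.56) of fibroblast-gene cells. Cd93 was found in 34.4% (33.4 to 35.4) against 1.60% (1.19 to 2.11), and Calcrl in 59.1% (58.0 to 60.1) against 13.4% (12.2 to 14.7). Sele was found in 3.01% (2.66 to 3.40) against 0.654% (0.400 to 1.01). Without thinning, 4152 of the 8966 Egfl7 cells had a Thbd UMI, 5223 a Cd93 UMI, 6586 a Calcrl UMI and 499 a Sele UMI. Fibroblast-gene cells had the deeper libraries (median of 6063 UMIs) and the lower shares of each.

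Among Egfl7 cells, 3 gene pairs that are not members split the cells, and 4 members changed with the split. Selp, Calcrl and Nostrin were highest in the cells with Fmo2 or Fabp4, and Tfpi was highest in the cells with Prox1 or Kif26b and lowest in those with Fmo2 or Fabp4. Prox1 is a transcription factor of lymphatic and valve endothelium, and Fabp4 is a fatty acid carrier of capillary endothelium. UMIs of a single pair were found in 2790 cells for Prox1/Kif26b, 739 for Tmem163/Kcnh1 and 1268 for Fmo2/Fabp4, whereas 1652 cells had none and 2517 had several. Highest over lowest passed the 2-fold rule for 4 of the 9 members with enough UMIs, against 20.6% of 2169 genes. Of these, 1 (Tfpi) was highest in Prox1/Kif26b cells, against 5.58% of genes, and 3 were highest in Fmo2/Fabp4 cells, against 7.84%. No member that passed was highest in Tmem163/Kcnh1 cells, where 7.15% of genes were.

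Selp separated the groups most. Its level was 1.15 in Fmo2/Fabp4 cells, 0.158 in Prox1/Kif26b cells and 0.137 in Tmem163/Kcnh1 cells, a ratio of 8.35 (6.48 to 10.9) between the first and the last. In the first barcode run the Fmo2/Fabp4, Prox1/Kif26b and Tmem163/Kcnh1 levels were 1.18, 0.132 and 0.137, and in the second they were 1.02, 0.236 and 0.141, the last from 4 UMIs. The Fmo2/Fabp4 cells were thus highest in both runs, and the other groups did not differ from each other beyond counting error over all cells (ratio 1.15, 0.872 to 1.53). Fmo2/Fabp4 over Prox1/Kif26b was 8.91 (7.49 to 10.7) among cells of the first run but 4.32 (3.29 to 5.68) in those of the second.

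Calcrl and Nostrin rose in steps over the same 3 groups. Calcrl stood at 5.14 in Prox1/Kif26b cells, 12.4 in Tmem163/Kcnh1 cells and 20.2 in Fmo2/Fabp4 cells, a highest-over-lowest ratio of 3.93 (3.82 to 4.04). Nostrin stood at 0.592, 0.940 and 2.23 in the same order, a ratio of 3.76 (3.47 to 4.08). For Nostrin the order was the same in both runs. For Calcrl it was kept in the first run (5.19, 12 and 20.9), whereas the 36 Tmem163/Kcnh1 cells of the second run (19.1, 17.5 to 20.8) did not differ beyond counting error from its Fmo2/Fabp4 cells (17.4, 16.7 to 18.2).

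Tfpi fell in steps where Calcrl, its neighbour on the chromosome, rose. Its levels were 0.924 in Prox1/Kif26b cells, 0.574 in Tmem163/Kcnh1 cells and 0.386 in Fmo2/Fabp4 cells, a ratio of 2.40 (2.10 to 2.75). Prox1/Kif26b over Fmo2/Fabp4 was 2.6 (2.23 to 3.04) for the first run, while the second, at 1.80 (1.36 to 2.42), no longer reached the fold. F5 had 8 UMIs in Prox1/Kif26b cells and 13 in Fmo2/Fabp4 cells, too few for the comparison, with levels of 0.00487 and 0.0196. Thbd and Procr changed little, from 2.09 in Prox1/Kif26b to 1.39 in Fmo2/Fabp4 cells for Thbd (ratio 1.5, 1.39 to 1.61) and from 0.314 to 0.238 for Procr (1.32, 1.10 to 1.59). Cd93 followed them, from 2.78 to 2.06 (1.35, 1.27 to 1.43). Cd34 was highest in Tmem163/Kcnh1 cells at 2.59, against 1.60 and 1.70 in Prox1/Kif26b and Fmo2/Fabp4 cells. With Leiden clusters in place of the sorting rule these Cd34 levels were 2.98, 1.35 and 1.01, which passed the fold, as they also did in cells with both genes of a pair. Sele did not separate the groups over all cells, at 0.328, 0.323 and 0.377 in the order Prox1/Kif26b, Tmem163/Kcnh1, Fmo2/Fabp4. The runs went opposite ways for Sele: Prox1/Kif26b over Fmo2/Fabp4 was 0.733 (0.620 to 0.868) for the first and 1.98 (1.29 to 3.15) for the second, where Tmem163/Kcnh1 cells had 1 Sele UMI.

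**Figure D2:**
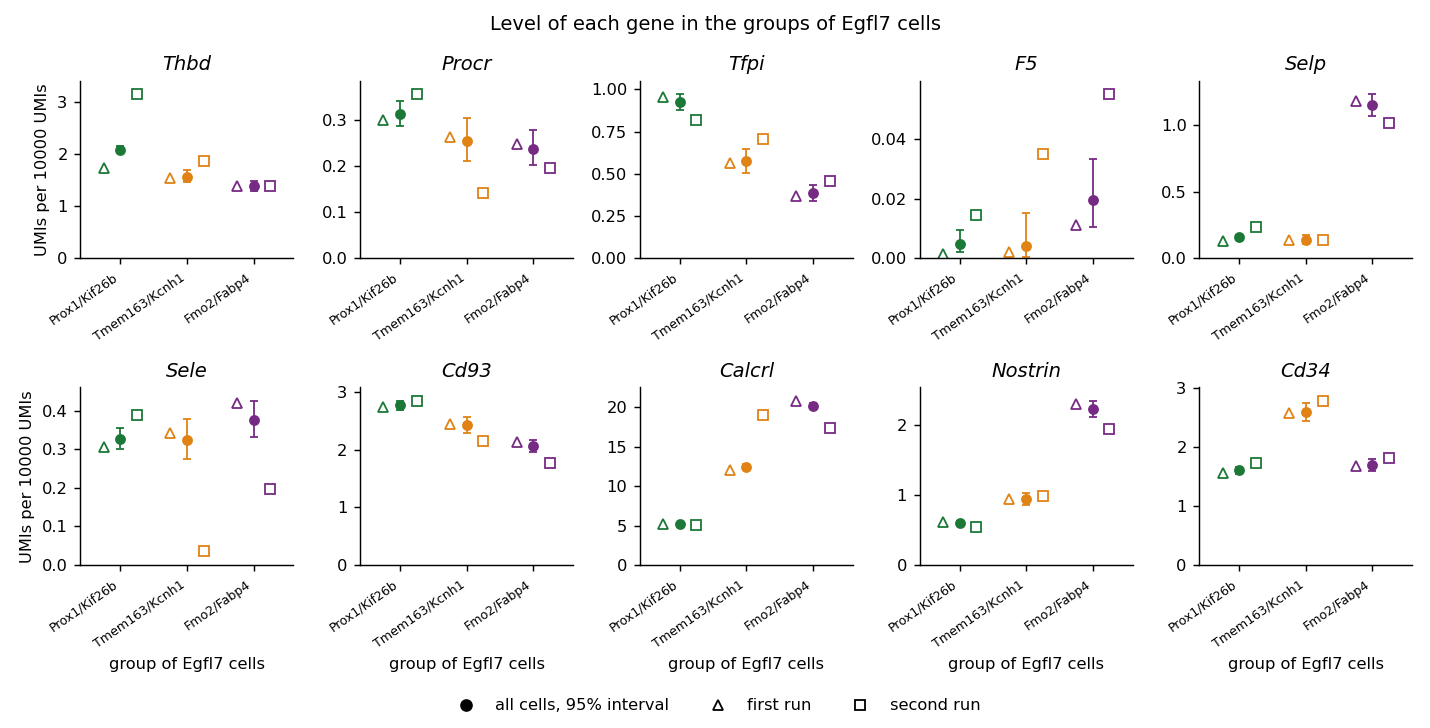
Level of each gene (UMIs per 10000 UMIs) in the 3 groups of Egfl7 cells: filled circles show all cells with 95% exact Poisson intervals, open triangles the first and open squares the second barcode run, each panel starting at 0. Selp, Calcrl and Nostrin are highest in Fmo2/Fabp4 cells and Tfpi in Prox1/Kif26b cells, and the Thbd square of Prox1/Kif26b cells (3.16) lies far above its triangle (1.74).

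The summed fibroblast genes moved with this split. The summed level of Prrx1, Col3a1 and Dpt, the 3 of 8 fibroblast markers in the matrix, was 1.73 in Fmo2/Fabp4 cells, 0.309 in Prox1/Kif26b cells and 0.209 in Tmem163/Kcnh1 cells. The cardiomyocyte markers stood at 1.04, 0.910 and 1.59 in the same order. The fibroblast genes did not move alike. In Leiden cluster 4 (described below), where Fmo2 was highest, Col3a1 stood at 2.42, Prrx1 at 0.0654 and Dpt at 0.0304. In cluster 3, rich in Prox1 and Kif26b, Col3a1 stood at 0.218, Prrx1 at 0.0209 and Dpt at 0.0333. Fibroblast-gene cells carried Fmo2 itself at 1.57. In the Egfl7 cells with no UMI of these 3 genes, chosen after the values were seen, Selp was still 8.12 times (6.06 to 11.1) as high in Fmo2/Fabp4 as in Tmem163/Kcnh1 cells. Calcrl and Nostrin kept ratios of 3.45 (3.34 to 3.57) and 3.41 (3.10 to 3.75), and Tfpi one of 2.14 (1.83 to 2.52). Among Fmo2/Fabp4 cells, the 1066 with Fmo2 alone and the 46 with Fabp4 alone differed: Selp stood at 1.19 (1.10 to 1.28) against 0.349 (0.174 to 0.625), and Sele at 0.330 (0.284 to 0.382) against 1.94 (1.48 to 2.49). The last value rests on 61 Sele UMIs, which may sit in few of the 46 cells, and its interval does not cover that. The 156 cells with both genes had Selp at 1.17 and Sele at 0.103.

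The change with Fmo2 and with Prox1 and Kif26b was graded. In thinned Egfl7 cells with no Fmo2 UMI, 3.13% (2.71 to 3.60) had a Selp UMI, and the share was 11.2% (8.78 to 13.9) at 1 Fmo2 UMI, 14.7% (11.4 to 18.5) at 2 and 19.3% (17.2 to 21.6) at 3 or more. Nostrin went from 12.3% to 36.0% and Calcrl from 50.7% to 84.4% over the same steps, while Tfpi went from 13% to 5.51%. Along UMIs of Prox1 and Kif26b the directions turned around. From none to 3 or more, the share with Tfpi went from 9.56% (8.78 to 10.4) to 18.3% (16.1 to 20.6), and that with Selp from 8.10% (7.37 to 8.87) to 1.48% (0.863 to 2.36). Sele, between 2.77% and 3.78% along Fmo2, also went down here, from 3.61% (3.12 to 4.16) to 0.783% (0.358 to 1.48). Procr stayed between 4.35% and 5.54%.

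**Figure D3:**
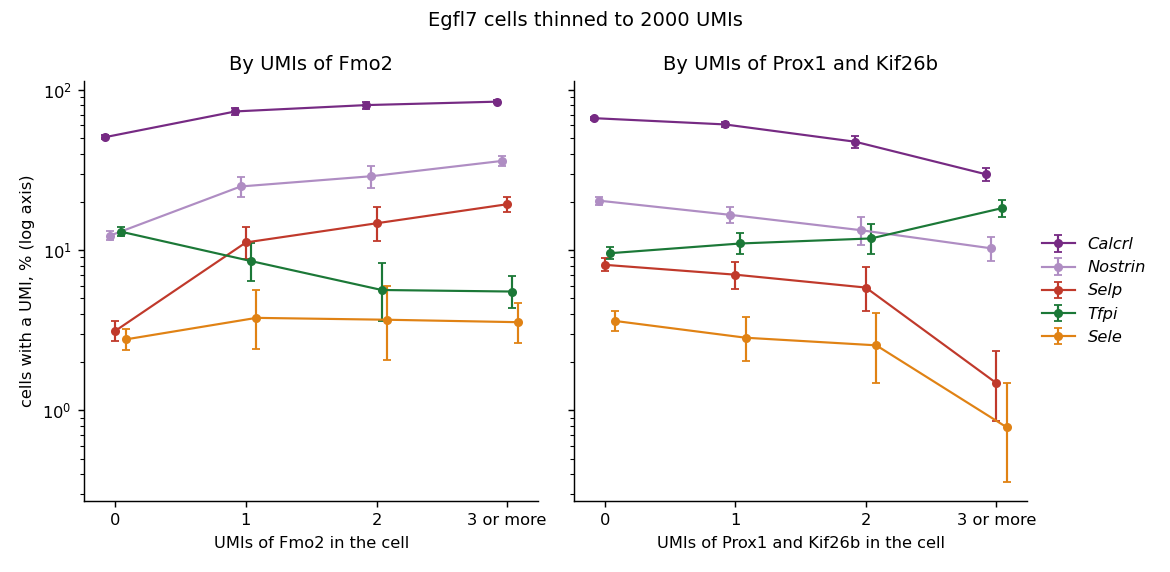
Share of Egfl7 cells, thinned to 2000 UMIs, with a UMI of Calcrl, Nostrin, Selp, Tfpi or Sele (log axis, 95% exact binomial intervals), by the UMIs of Fmo2 (left) and of Prox1 and Kif26b together (right) in the cell. Selp goes from 3.13% to 19.3% along Fmo2 and from 8.10% to 1.48% along Prox1 and Kif26b, and Tfpi goes the other way in both.

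The same pattern was seen within single cells, given as shares and without a test, since the cells share their libraries. Of the 939 thinned Egfl7 cells with Tfpi, 3.41% (2.34 to 4.78) also had Selp, against 7.26% (6.68 to 7.87) of those without Tfpi. Nostrin accompanied Selp in 29.8% (26.1 to 33.7) of 574 cells and was seen in 16.9% (16.1 to 17.7) of cells lacking Selp, and the same shares for Calcrl were 82.4% (79.0 to 85.4) and 57.4% (56.3 to 58.5). The selectins also overlapped: 17.0% (12.6 to 22.2) of the 253 cells with Sele had a Selp UMI, against 6.52% (5.99 to 7.07) of those without Sele. Thbd and its partner Procr overlapped less, with Procr in 5.99% (5.01 to 7.11) of cells with Thbd and 4.09% (3.62 to 4.61) of cells without.

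The UMIs of Sele sat in few cells, and those of Selp did so less. Sele was seen in 499 Egfl7 cells, and 47 of these, with 10 or more UMIs each, held 54.1% of its 1922 UMIs, with up to 69 in a single cell. Selp was seen in 1130 Egfl7 cells, and the 20 with 10 or more UMIs held 13.1% of its 2434 UMIs. The 1% of Egfl7 cells richest in each gene, 90 cells, held 67.6% of the Sele UMIs and 30.6% of the Selp UMIs. For Procr, which had a similar total of 1512 UMIs, they held 22.2%, and for Thbd, Tfpi, Cd93, Calcrl, Nostrin and Cd34 between 8.71% and 11.7%. At 2000 UMIs per cell the variance over the mean across cells was 5.20 for Sele, 2.22 for Selp and 1.15 for Procr, where counting error alone gives a value near 1. Calcrl also varied widely (5.86), at a mean of 2.39 UMIs per thinned cell, against 0.0634 for Sele.

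**Figure D4:**
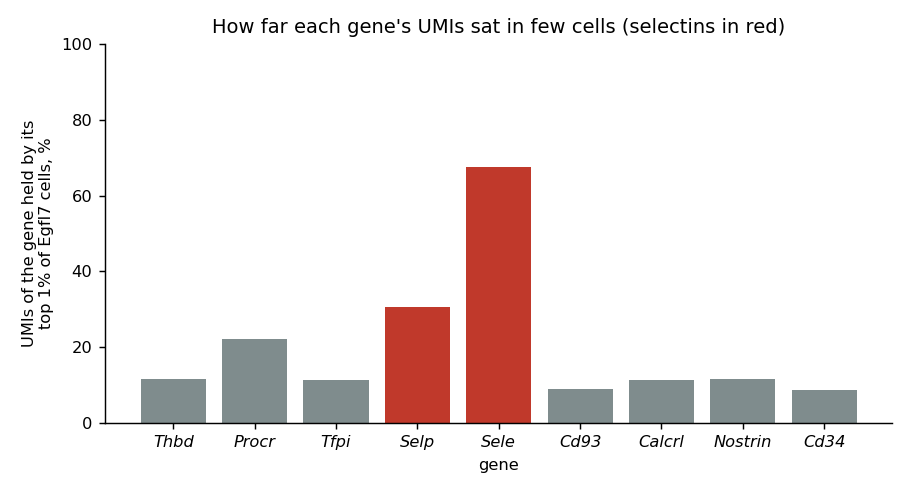
Percent of each gene's UMIs held by the 1% of Egfl7 cells (90 cells) with the most UMIs of that gene, with the selectins in red and F5, which had UMIs in only 38 cells, left out. Sele reaches 67.6% and Selp 30.6%, while Procr, with a total UMI count near that of Sele, reaches 22.2%.

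The cells rich in a selectin were described further, with no test, since they were picked by its level. The 47 cells with 10 or more Sele UMIs were deep, with a median of 9427 UMIs against 5312 in Egfl7 cells without Sele, and 9 came from the second run. Their Selp level was 3.72 (3.16 to 4.35) against 0.383 (0.366 to 0.401) in cells without Sele, and their Cd93 and Cd34 levels were 4.53 against 2.48 and 3.86 against 1.87. Calcrl went the other way, at 3.98 (3.40 to 4.63) against 11.7 (11.6 to 11.8), while Thbd (2.11 against 1.74) and Tfpi (0.711 against 0.670) had overlapping intervals. The 20 cells with 10 or more Selp UMIs had a Sele level of 8.04 (6.84 to 9.39) against 0.235 (0.222 to 0.25) in cells without Selp, and 5 cells belonged to both sets. Without the cells of 10 or more UMIs of either selectin, left out after the values were seen, the level of Egfl7 cells was 0.164 for Sele and 0.387 for Selp. Since these cells were picked by the selectins, no comparison of the selectins between groups was read from the remainder.

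Clusters made from the other genes gave a second view. Leiden clustering, which groups cells by overall likeness, was run without the members and the genes of the sorting rule and gave 14 clusters. Cluster 4 (2124 cells), where Fmo2 was highest, had the highest levels of Selp (1.5, 1.43 to 1.57), Calcrl (25.5, 25.2 to 25.8), Nostrin (2.67, 2.58 to 2.77) and F5 (0.0267, 0.0179 to 0.0383) among the clusters of 200 or more cells, and a low Tfpi level (0.271, 0.241 to 0.303). Cluster 3 (3443 cells), which held high Prox1 and Kif26b, had Tfpi at 0.956 (0.911 to 1.0), Selp at 0.115 (0.10 to 0.132) and Sele at 0.146 (0.129 to 0.165). In cluster 1 (4211 cells), which carried Tmem163 and Kcnh1, Sele was at 0.441 (0.416 to 0.467) and Cd34 at 2.69 (2.63 to 2.75).

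A pair of small clusters stood above these for Thbd, Procr and Sele. Cluster 8 (251 cells) had the highest levels of Thbd (4.73, 4.43 to 5.04), Sele (1.19, 1.04 to 1.35), Cd93 (3.99, 3.72 to 4.27), Procr (0.567, 0.468 to 0.681) and Tfpi (1.02, 0.889 to 1.17) among these larger clusters, although for Procr (cluster 7) and Tfpi (cluster 3) the interval of the next cluster overlapped. Its Selp level, 0.930 (0.802 to 1.07), was below only that of cluster 4, although cluster 8 also carried Prox1 (3.99) and Kif26b (3.84). Selp and Tfpi were thus both high in this cluster. Sox18, an endothelial transcription factor, led its genes, followed by Cebpb, Nrarp, Id1 and Dusp2. Of its cells, 240 came from the second barcode run, so the cluster could not be compared between runs. Within that run its Thbd level was 4.68 (4.38 to 5.0), against 2.23 (2.08 to 2.38) in cluster 3, 1.99 (1.84 to 2.16) in cluster 1 and 1.35 (1.19 to 1.53) in cluster 4. Cluster 7 (467 cells, both runs) had Cd34 at 4.67 (4.47 to 4.88), the highest of the larger clusters, Thbd at 2.55 (2.40 to 2.70) and Sele at 0.783 (0.703 to 0.870), with the lower Calcrl level of 5.06 (4.86 to 5.28), and its cells were deep (median of 9522 UMIs). The Thbd level of Prox1/Kif26b cells was 1.74 (1.67 to 1.81) for the first run but 3.16 (2.99 to 3.34) for the second, and its ratio to Fmo2/Fabp4 cells was 1.25 (1.15 to 1.35) and 2.28 (1.94 to 2.68), past the fold for the second run alone. Without cluster 8 the Thbd level of Prox1/Kif26b cells over both runs was 1.88 (1.81 to 1.95) in place of 2.09. For Sele, Fmo2/Fabp4 over Prox1/Kif26b was 1.38 (1.18 to 1.62) without cluster 8, against 1.15 (0.985 to 1.34) with it. Without cluster 7 instead, the Sele level was 0.298 (0.256 to 0.343) in Fmo2/Fabp4 cells and 0.300 (0.274 to 0.328) in Prox1/Kif26b cells. In Tmem163/Kcnh1 cells it was then 0.323 (0.271 to 0.381), and these intervals overlapped. The Sele difference thus depended on which of these clusters was left out. Within the second run the Sele level was 0.049 (0.0295 to 0.0765) in cluster 3 and 0.23 (0.167 to 0.309) in cluster 4. The part of cluster 8 in the opposite directions of the runs for Sele was not tested.

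**Figure D5:**
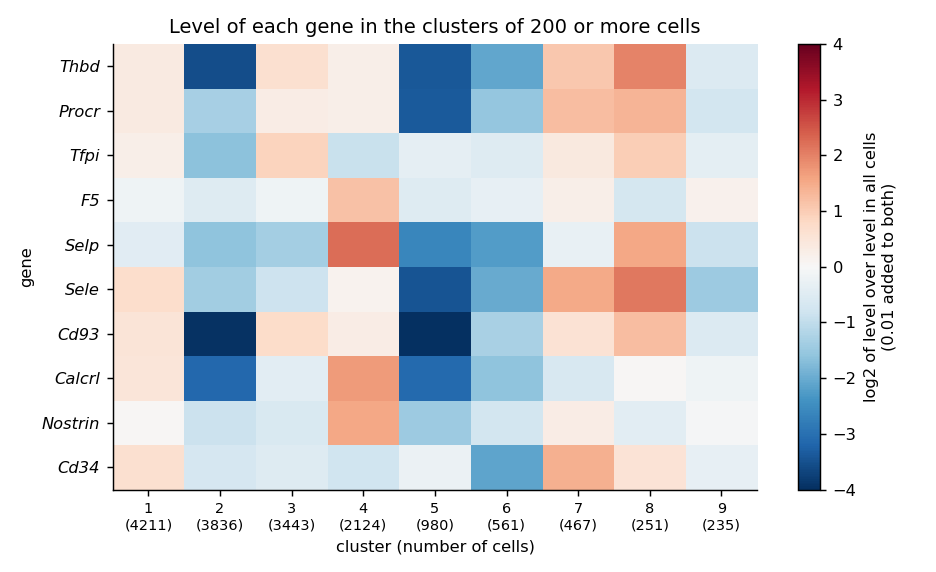
log2 of the level of each gene in each cluster of 200 or more cells over its level in all cells (0.01 UMIs per 10000 added to both), from blue (lower) to red (higher). Selp, Calcrl, Nostrin and F5 are reddest in cluster 4, Thbd and Sele in cluster 8 (1.98 and 2.12 on the log2 scale) and Cd34 in cluster 7, while clusters 2 and 5, which hold fibroblast-gene cells, are blue for all 10.

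The genes most like each member across the 14 clusters are given as a description, by Pearson's r of log2 levels over 1936 genes with 500 or more UMIs. Thbd ran closest to Id1 (0.917) and Efna1 (0.912), an ephrin ligand, and Cd93 closest to Ptgs1 (0.930), the cyclooxygenase that feeds prostacyclin synthesis, and Ehd4 (0.900). Selp ran closest to Degs1 (0.932) and Rbm18 (0.901), Calcrl to She (0.913) and Lmo2 (0.898), and Nostrin to Stk25 (0.910) and Pnkd (0.897). Cd34 was nearest Inhbb (0.912), an activin subunit, and Inpp1 (0.881). Procr was nearest 1700037H04Rik (0.949) and Ythdf1 (0.918), and Sele nearest Krtcap2 (0.906) and 1700037H04Rik (0.885). The likeness was weaker for Tfpi, with Sh3glb2 (0.813) and Rpl22l1 (0.757), and for F5, with Erich2 (0.730) and Rsu1 (0.721). Between members, Thbd and Cd93 were most alike (0.956) and Tfpi and F5 least (-0.27). The clusters share libraries and differ in depth, and they include clusters with few Egfl7 cells.

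Other genes of these pathways were few in the matrix. Of 41 coagulation and fibrinolysis genes, 6 were present besides the members, and 5 had enough UMIs, of which 1 was counted as higher and none as lower in Egfl7 than in fibroblast-gene cells. That gene, Ptgs1, stood at 3.95 against 0.129, a ratio of 30.7 (27.2 to 34.8). Ptgis, the prostacyclin synthase that acts after it, went the other way without passing the fold (3.39 against 4.81). Of 27 leukocyte adhesion genes, 6 others were present and 3 had enough UMIs, of which 1 was higher, F11r, a junctional adhesion protein, at 1.28 against 0.0464 (27.6, 22.6 to 34.1). Ackr1, a chemokine-binding receptor known from venules, had only 16 UMIs in the whole matrix. Of 8 surface complement regulators, 5 others were present, and 2 were higher, Cd55 (7.76, 7.24 to 8.33) and Cd59a (6.65, 6.07 to 7.31), both known to guard cells against complement. Of the nitric oxide synthase list only Dnm3 was present besides Nostrin, and it was not higher (0.633 against 1.15). Ramp1, the partner that makes Calcrl a CGRP receptor, was the only other gene of its list present, with 91 UMIs in all, at 0.00279 (Egfl7), 0.010 (fibroblast-gene) and 0.214 (Ptprc), and was lower in Egfl7 than in Ptprc cells by the same count. Against Ptprc cells, 3 of the 5 coagulation genes, 2 of the complement regulators and Dnm3 were higher in Egfl7 cells, and 2 adhesion genes, Itga4 and Cd48, were lower. Over all genes tested, 15.2% were higher in Egfl7 than in fibroblast-gene cells and 16.3% higher than in Ptprc cells. Over the 3 groups of Egfl7 cells, 2 coagulation genes, 1 adhesion gene and 1 complement regulator passed the fold, against 20.6% of 2169 genes. No other gene of the thrombomodulin lectin family was present.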

How the data were processed

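Mitral valve cells were captured on the 10x Chromium system (3′ v3 chemistry, per the labels). According to the submitters' processing notes, reads were processed with Cell Ranger 7.1.0 and build mm10. According to the methods, the authors used Seurat 4.3.0 and Harmony 0.1.1, kept cells with 200 to 5000 genes and under 10% mitochondrial reads, and kept genes seen in at least 3 cells. The deposited matrix holds the natural log of 1 plus UMIs per 10000 in each cell, as its values show, with 3265 genes listed, of which 1 with 11958 empty values was left out. The genes used cover chromosomes 1 and 2 and part of 3. UMIs and each cell's total were recovered from the log steps, with 100% of values whole within 0.02. No column of another sample was left unused (0), and doublets were not called or removed.

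The members, lists and groups were chosen with earlier results of these data known. Named genes are the members, the genes of the sorting rule and, for each member, the 2 genes with 500 or more UMIs whose log2 level (0.01 added) correlated best with it across clusters, plus genes of the listed pathways. Levels are summed UMIs per 10000, with exact Poisson intervals. Ratios carry exact conditional binomial (Clopper-Pearson) intervals and shares exact binomial ones, all at 95% and for counting error only. Of 1 pooled sample no p-value was computed. Leiden clusters (igraph 0.11.9, resolution 0.5) used 2000 variable genes, 50 principal components and 15 neighbours (scanpy 1.11.5, scikit-learn 1.9.0). A cluster was sorted by the level of the same rule genes. Intervals and calls were tested on simulated data. Python 3.11.15, numpy 2.4.6, pandas 2.3.3, scipy 1.17.1 and matplotlib 3.10.9 were used. Positions came from GENCODE M21 and promoters from RefSeq (GRCm38.p6). Alternatives changed the sorting rules, the depth, the run, the fold and the averaging. 4 others were added after the data were seen: leaving out cluster 7, cluster 8, cells with fibroblast-gene UMIs, or cells rich in a selectin. Values of some listed genes are not reported here.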

Additional observations from a re-analysis of the deposited data

How the results depend on the processing

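All 47 alternative counts of members, over the 3 comparisons, stayed within 1.5 times the counts given. The members behind them were not always the same. F5 dropped out of the fibroblast-gene comparison with Egfl7 at 2 or more UMIs, in each run alone, in thinned shares and without fibroblast-gene UMIs. At a fold of 3 rather than 2, the counts were 7, 7 and 3. The share of all genes past a fold of 3 is not given here, so these counts show only which members stay. In the second run Thbd and Sele joined, and Tfpi left, the members that differed over the 3 groups of Egfl7 cells, and with Leiden clusters F5 and Cd34 joined them. Of 60 member levels, 35 lay within the counting interval of the reported level with Leiden clusters in place of the sorting rule, 52 in the first run and 15 in the second. The first run holds 14222 of the 16383 cells behind the reported levels, so its nearness to them says little. For genes of few UMIs, such as F5, depth limits the comparison. No paired analysis was possible because the barcodes name no replicate, and leaving out a library was not run for the same reason.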

Other observations

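Genes other than the members also stood apart in the cells rich in a selectin, listed here as values chosen after they were seen. Among genes with 50 or more UMIs in the 47 Egfl7 cells with 10 or more Sele UMIs, Rgs2, a regulator of G-protein signalling, had the largest ratio to cells without Sele, 98.3, but all 53 of its UMIs lay in 1 cell. Atf3, a stress-induced transcription factor, came next at 1.85 against 0.208 UMIs per 10000 (8.90, 6.98 to 11.2) and was seen in 15 of the 47 cells. Cd44, a hyaluronan receptor that also binds E-selectin, stood at 3.22 against 0.95 (3.39, 2.84 to 4.02), in 23 cells. The ribosomal protein genes Rpl7a (3.61, 2.82 to 4.57) and Rpl12 (3.21, 2.44 to 4.15), the prion protein gene Prnp (3.22, 2.81 to 3.67) and Sdc4, a syndecan (3.20, 2.38 to 4.22), had ratios of like size. In the 20 cells with 10 or more Selp UMIs the leading gene was Cd55, at 9.65 against 2.88 (3.35, 2.89 to 3.87) and present in all 20. It was followed by Uap1 (2.83, 2.14 to 3.68), Abi1 (2.45, 2.14 to 2.80, in all 20 cells) and Il1r1, an interleukin-1 receptor (2.43, 1.82 to 3.18, in 13 cells). These cells were deeper than the rest, with a median of 9427 UMIs for the first set and 10628 for the second, and the part of depth in these values was not tested.

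The cells rich in Sele were spread over clusters. Of the 47, 23 lay in cluster 1 and 6 each in clusters 3, 7 and 8, which made 0.749%, 0.194%, 1.74% and 2.47% of the Egfl7 cells of those clusters. Of the 20 rich in Selp, 9 lay in cluster 4 and 4 in cluster 8.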
